A study of Homo sapiens with 10 samples.

Results

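The genes described here make cholesterol, move it between cell compartments or sense how much of it the membranes hold. They were chosen by function, as a list of 28 gene symbols, and 26 of them could be named on the arrays among the 19775 genes tested. FDFT1 and CYP51A1 had no probe set annotated with that 1 symbol and were not analysed here. The samples were HuCCT1 cells, an established line of human intrahepatic cholangiocarcinoma, a cancer of the bile ducts. In 5 samples the cells carried a vector labelled YAPS94A, and in 5 they carried an empty vector. YAP1 is a transcriptional co-activator restrained by the Hippo kinases. The construct is called by its label here, because the series names it in conflicting ways, with S94A (known to impair TEAD binding) in the title and S127A (an active form that escapes Hippo phosphorylation) in the design text. The sources used here do not say whether the cells were a pool or a clone, how long after transfection RNA was taken, or whether the arrays of 1 vector represent independent cultures. The p-values thus rest on the spread among arrays alone, which may be technical.

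Cells make cholesterol from acetyl-CoA through the mevalonate pathway, which also feeds farnesyl and geranylgeranyl groups to other products, and then through squalene, lanosterol and a series of late sterol intermediates. When membranes of the endoplasmic reticulum run low in sterol, the escort protein SCAP carries the transcription factor SREBP-2, encoded by SREBF2, to the Golgi, where proteases release its active part. INSIG proteins hold SCAP back when sterol is plentiful, so the pathway's genes are known to move together through this loop. Bile ducts are the route by which the liver disposes of cholesterol and bile acids.

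YAP1 itself read 12.87, 12.53, 12.90, 12.92 and 13.01 on the YAPS94A arrays, against 12.12, 12.05, 12.47, 12.48 and 12.50 on the empty vector arrays (log2 signal). Every YAPS94A array lay above every empty vector array, with a difference of 0.52 ± 0.11 (SE, limma adjusted p = 0.00277, exact two-sided permutation p = 0.0079, the smallest that 5 against 5 allow). Relative to the genes beside it on the chromosome the difference was 0.26 on this probe set, the brightest (limma adjusted p = 0.0823). Here and below, a p-value relative to neighbours uses the gene's own SE and takes the median of those neighbours as fixed. The other YAP1 probe sets rose by 0.56 ± 0.10 and 0.60 ± 0.065, also without overlap between groups. Their limma adjusted p over all probe sets was 0.0011 and 1.93e-05. Array medians lay between 6.25 and 6.28, and pairs of arrays correlated at 0.9957 to 0.9991 where they shared a vector and at 0.9867 to 0.9902 where they did not. The 7 measured markers of bile duct epithelium were bright, between 12.68 and 14.18 in mean log2 signal, and 5 of them rose slightly. Over all genes 18.6% were called higher and 17.6% lower, and 26.5% of genes above the median level were called higher. The log2 of the summed signal of the 7 bile duct markers was 16.42 to 16.46 with YAPS94A and 16.26 to 16.30 with empty vector. Markers of leukocytes and endothelium stayed at or below 6.34 in mean log2 signal and 0 of 8 passed the limma test (also 0 at an unadjusted p under 0.05). Of 6 fibroblast markers 5 did not pass the test, and LUM, a matrix proteoglycan gene, rose by 2.67 ± 0.088 (SE). Fibroblast markers summed to 11.05 to 11.29 with YAPS94A and 9.66 to 9.97 with empty vector on the log2 scale, and 1 of the 6, the collagen gene COL3A1, read below the lower quartile of all signals (4.60 in both groups, against a quartile of 4.73). The collagen gene COL1A1 read 8.71 with YAPS94A and 8.83 with empty vector, and DCN, a matrix proteoglycan gene, read 6.10 with YAPS94A and 6.11 with empty vector. Of 5 hepatocyte markers 2 were lower and 3 did not pass, with sums of 12.62 to 12.75 with YAPS94A and 12.81 to 12.95 with empty vector. Nearly all of that sum was SERPINA1, which was called lower, at 12.65 with YAPS94A and 12.84 with empty vector. The other hepatocyte markers had group means of at most 5.50, and ALB was at 4.72 with YAPS94A and 4.74 with empty vector. The part of these markers in the results below was not tested.

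Almost the whole set was higher in the cells with YAPS94A, by modest amounts. Of the 26 measured members 23 rose (88.5%), 2 fell, NPC1 and SOAT1 (7.69%), and 1, SCAP, did not pass the test (limma, Benjamini-Hochberg adjusted p under 0.05 over all genes). Among all genes tested 18.6% were called higher and 17.6% were called lower. The members are bright, with 25 of 26 above the median gene level, and among genes above that level 26.5% were called higher. The median difference was 0.39 on the log2 scale, or 1.31-fold, against a median of -0.0038 over all genes. No member reached a 2-fold difference on its brightest probe set. For 21 of the 23 genes that rose, every YAPS94A array lay above every empty vector array, a separation in that direction that 15.3% of all genes showed. In a bulk sample, a change in the mix of cells and a change of RNA per cell cannot be told apart.

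**Figure D1:**
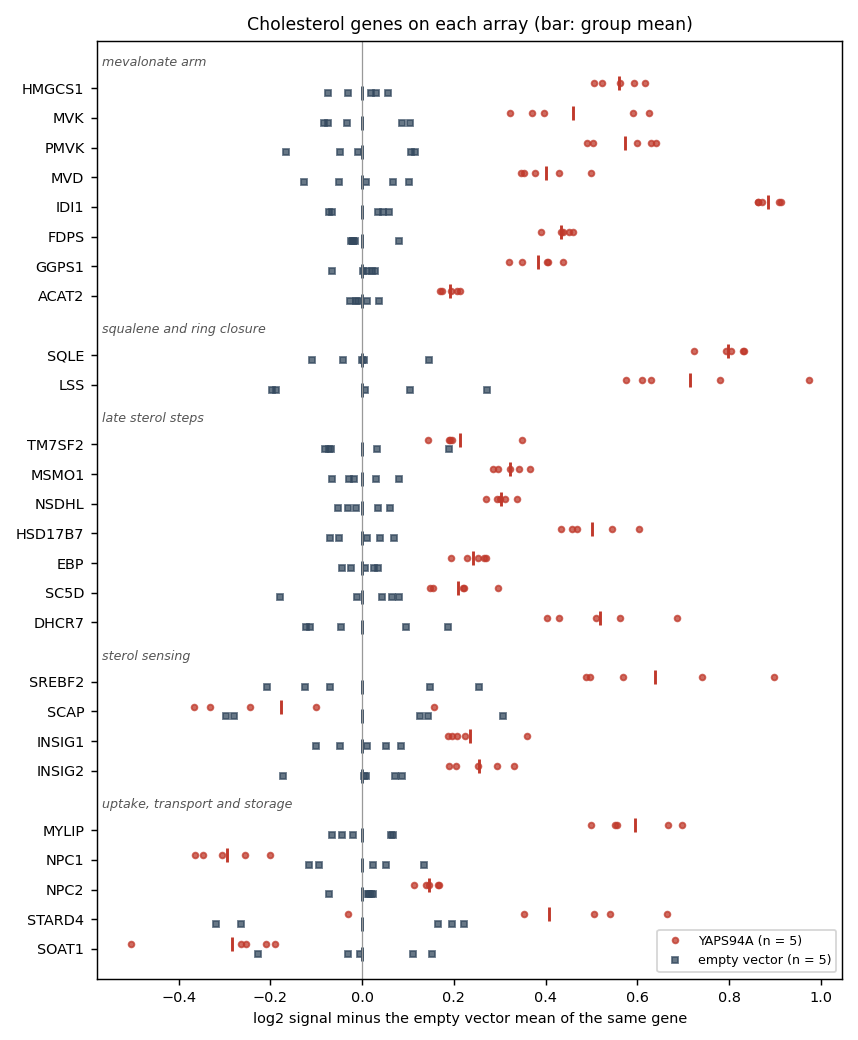
Each point is 1 array, plotted as the log2 signal minus the empty vector mean of the same gene (horizontal axis), with YAPS94A arrays as circles and empty vector arrays as squares, 5 each, and a bar at each group mean. The YAPS94A points of 21 genes lie wholly to the right of the squares, NPC1 lies wholly to the left, and SCAP, TM7SF2, STARD4 and SOAT1 overlap.

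The proximal promoters of these genes are shown because the genes moved together. RefSeq (GRCh38.p14) promoter windows, from 250 bases before to 50 bases after the transcript start, were matched for 24 of the 26 measured members, all but ACAT2 and SQLE, and a member or gene counts if any of its windows holds the motif. The sterol regulatory element was searched as TCACNCCAC on both strands, with its core CACCCCAC beside it, the CCAAT box of the factor NF-Y as CCAAT, and the GC box of Sp1 as GGGCGG. The element and its core overlap, and a single stretch in SREBF2 matched both. SREBF2 was the only one of the 24 members with either, which is 4.17% of them. The longer form lay in 1.43% of the 15384 tested genes with a window and in 1.13% of all 35116 promoters, and the core in 3.80% of those genes and 2.79% of all promoters, so the members' share for the core was close to that of all genes. A CCAAT box lay in a window of 20 of the 24 members (83.3%), against 41.7% of those 15384 genes and 34.6% of all promoters. A GC box lay in 23 of the 24, against 64.6% of those genes and 45.0% of all promoters. The 4 members without a CCAAT box were INSIG2, PMVK, NPC1 and SCAP. Of these INSIG2 and PMVK rose, NPC1 fell and SCAP did not pass the test, whereas SOAT1, which fell, has the box. These are matches of letters to fixed spellings within the windows. Sites spelled otherwise or outside the windows were not searched, so a member without a match may still have a site. Binding was not measured. Windows are given for the pathway's transcription factor (SREBF2, chr22:41832855-41833154 on the plus strand), its feedback inhibitor (INSIG1, chr7:155297628-155297927 on the plus strand), an early and a middle enzyme (HMGCS1, the first of 2 listed windows, chr5:43313363-43313662 on the minus strand, and LSS, chr21:46228725-46229024 on the minus strand) and the gene that fell without overlap between groups (NPC1, chr18:23586457-23586756 on the minus strand). Capitals mark the sterol regulatory element and the CCAAT boxes, which read ATTGG where they lie on the other strand, and each sequence runs 5′ to 3′ along the gene.
SREBF2: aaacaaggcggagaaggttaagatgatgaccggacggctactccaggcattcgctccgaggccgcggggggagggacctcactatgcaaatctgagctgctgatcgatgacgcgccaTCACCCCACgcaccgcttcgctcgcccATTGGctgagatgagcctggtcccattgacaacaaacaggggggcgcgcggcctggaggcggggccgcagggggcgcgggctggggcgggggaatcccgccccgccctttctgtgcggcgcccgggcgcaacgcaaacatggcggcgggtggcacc
INSIG1: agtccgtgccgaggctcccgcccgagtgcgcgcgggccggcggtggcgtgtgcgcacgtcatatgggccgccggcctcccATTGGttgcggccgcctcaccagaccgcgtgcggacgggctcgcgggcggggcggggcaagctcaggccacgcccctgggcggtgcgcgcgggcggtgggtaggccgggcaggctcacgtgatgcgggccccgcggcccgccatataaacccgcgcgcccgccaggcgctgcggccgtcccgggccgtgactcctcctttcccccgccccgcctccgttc
HMGCS1: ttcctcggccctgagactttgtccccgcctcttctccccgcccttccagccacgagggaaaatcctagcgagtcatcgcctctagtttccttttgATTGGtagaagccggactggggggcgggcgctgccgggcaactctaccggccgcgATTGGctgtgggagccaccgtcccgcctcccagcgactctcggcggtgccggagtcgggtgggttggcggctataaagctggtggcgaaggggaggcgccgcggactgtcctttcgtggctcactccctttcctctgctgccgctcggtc
LSS: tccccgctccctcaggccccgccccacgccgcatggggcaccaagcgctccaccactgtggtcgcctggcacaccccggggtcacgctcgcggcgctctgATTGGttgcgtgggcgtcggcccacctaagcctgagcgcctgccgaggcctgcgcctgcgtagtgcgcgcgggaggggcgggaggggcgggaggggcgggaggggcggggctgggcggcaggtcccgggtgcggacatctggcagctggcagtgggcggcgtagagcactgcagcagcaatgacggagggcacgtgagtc
NPC1: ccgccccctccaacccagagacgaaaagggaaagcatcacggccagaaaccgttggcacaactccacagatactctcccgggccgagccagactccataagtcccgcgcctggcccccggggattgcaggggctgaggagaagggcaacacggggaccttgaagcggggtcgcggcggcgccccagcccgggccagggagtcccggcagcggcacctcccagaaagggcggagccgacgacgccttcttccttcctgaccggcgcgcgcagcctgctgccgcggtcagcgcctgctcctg
In SREBF2 the element starts 133 bases and the CCAAT box 106 bases before the transcript start. INSIG1 has its box at 170 bases and LSS at 150 bases before the start. The HMGCS1 window shown has boxes at 155 and 100 bases before its start, and the other listed HMGCS1 window has no CCAAT box. The NPC1 window has none.

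All 8 measured genes of the mevalonate arm rose, by 0.19 to 0.88 on the log2 scale. HMGCS1, the synthase that makes HMG-CoA from acetoacetyl-CoA, read 12.80, 12.85, 12.82, 12.74 and 12.76 on the YAPS94A arrays, against 12.26, 12.29, 12.20, 12.25 and 12.16 on the empty vector arrays (log2 signal). The lowest YAPS94A array was thus above the highest empty vector array, and the difference was 0.56 ± 0.038 (SE, 1.47-fold, limma adjusted p = 3.08e-07). ACAT2, the thiolase that makes that acetoacetyl-CoA, rose least, by 0.19 ± 0.030 (limma adjusted p = 0.000341), with arrays tight within each vector (SD 0.019 with YAPS94A and 0.024 with empty vector, n = 5 each). The kinases MVK and PMVK, which phosphorylate mevalonate in turn, rose by 0.46 ± 0.068 and 0.57 ± 0.058. MVD, the decarboxylase that follows them, was the dimmest member, at 7.37 ± 0.064 with YAPS94A and 6.97 ± 0.092 with empty vector (mean log2 signal ± SD, n = 5 each), and rose by 0.40 ± 0.051.

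IDI1, the isomerase that makes dimethylallyl diphosphate, had the largest difference of the set on brightest probe sets. It read 12.93, 12.97, 12.98, 12.93 and 12.94 on the YAPS94A arrays, against 12.12, 12.10, 12.11, 11.99 and 12.00 on the empty vector arrays, a rise of 0.88 ± 0.038 (1.85-fold, limma adjusted p = 5.44e-09). Its brightest probe set is of the _x_at kind, which can pick up related transcripts. Another _x_at probe set of IDI1, about as bright, rose by 0.93 ± 0.038. Without _x_at and _s_at probe sets IDI1 was at 0.43 (limma adjusted p = 0.00241), read from a single dim probe set (5.60 with YAPS94A, 5.17 with empty vector). The mean of its probe sets, at 0.59, includes that dim one and another dim one, which was at 0.13. On such means SQLE, at 1.04, HMGCS1, at 0.85, and LSS, at 0.62, stood above IDI1. The median difference of its 30 nearest genes along the chromosome was 0.49, and IDI1 exceeded it by 0.39 (limma adjusted p = 6.49e-06), less than LSS exceeded its own neighbours (0.87). For ACAT2 the neighbour median was -0.26, and the gene stood 0.45 above it. Set against their neighbours, IDI1 and ACAT2 thus differed by similar amounts, 0.39 and 0.45, where the unadjusted differences were 0.88 and 0.19. FDPS, which joins isoprene units into farnesyl diphosphate, rose by 0.43 ± 0.034 at a level near the top of the array scale (13.79 ± 0.027 with YAPS94A and 13.36 ± 0.045 with empty vector, mean ± SD, n = 5 each, where the highest signal of any probe set was 14.43). GGPS1, which extends farnesyl to geranylgeranyl diphosphate for protein prenylation, rose by 0.38 ± 0.036.

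SQLE and LSS, which oxidise squalene and close it into the sterol ring, rose by more than most of the set. SQLE, often the rate-limiting step after the mevalonate arm, read 12.51, 12.40, 12.47, 12.48 and 12.51 on the YAPS94A arrays, against 11.63, 11.57, 11.82, 11.68 and 11.68 on the empty vector arrays. The groups lay far apart relative to their spread, and the difference was 0.80 ± 0.048 (SE, 1.74-fold, limma adjusted p = 1e-07). LSS, the lanosterol synthase, read 12.31, 12.51, 12.16, 12.14 and 12.11 on the YAPS94A arrays, against 11.81, 11.54, 11.64, 11.35 and 11.34 on the empty vector arrays. Its arrays spread more widely within each vector, yet the groups did not overlap, and the difference was 0.71 ± 0.10 (1.64-fold, limma adjusted p = 0.000141).

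All 7 measured enzymes of the late sterol steps also rose, with a median of 0.30 and a range of 0.21 to 0.52. The largest rises were in DHCR7, the reductase of the final step of 1 branch of the pathway, by 0.52 ± 0.072 (SE), and in HSD17B7, a ketoreductase acting on sterol intermediates, by 0.50 ± 0.045. HSD17B7 is read by an _x_at probe set only. MSMO1 and NSDHL, which remove the methyl groups of lanosterol products together, rose by 0.32 ± 0.038 and 0.30 ± 0.035. MSMO1 lay between 13.32 and 13.40 with YAPS94A and between 12.97 and 13.12 with empty vector (log2 signal, n = 5 each). EBP, a sterol isomerase, rose by 0.24 ± 0.033, and SC5D, a sterol desaturase, by 0.21 ± 0.054. Without _x_at and _s_at probe sets SC5D was at 0.36 and did not pass (limma adjusted p = 0.479). TM7SF2, a sterol reductase, rose by 0.21 ± 0.059 (limma adjusted p = 0.014), but its groups overlapped. It read 8.51, 8.66, 8.50, 8.51 and 8.46 on the YAPS94A arrays, against 8.50, 8.35, 8.23, 8.24 and 8.25 on the empty vector arrays. The neighbours of TM7SF2 had a median of 0.27, and relative to them it was at -0.058 (limma adjusted p = 0.472), so its direction turned. For DHCR7 the neighbour median was 0.24, and the gene was 0.28 above it.

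**Figure D2:**
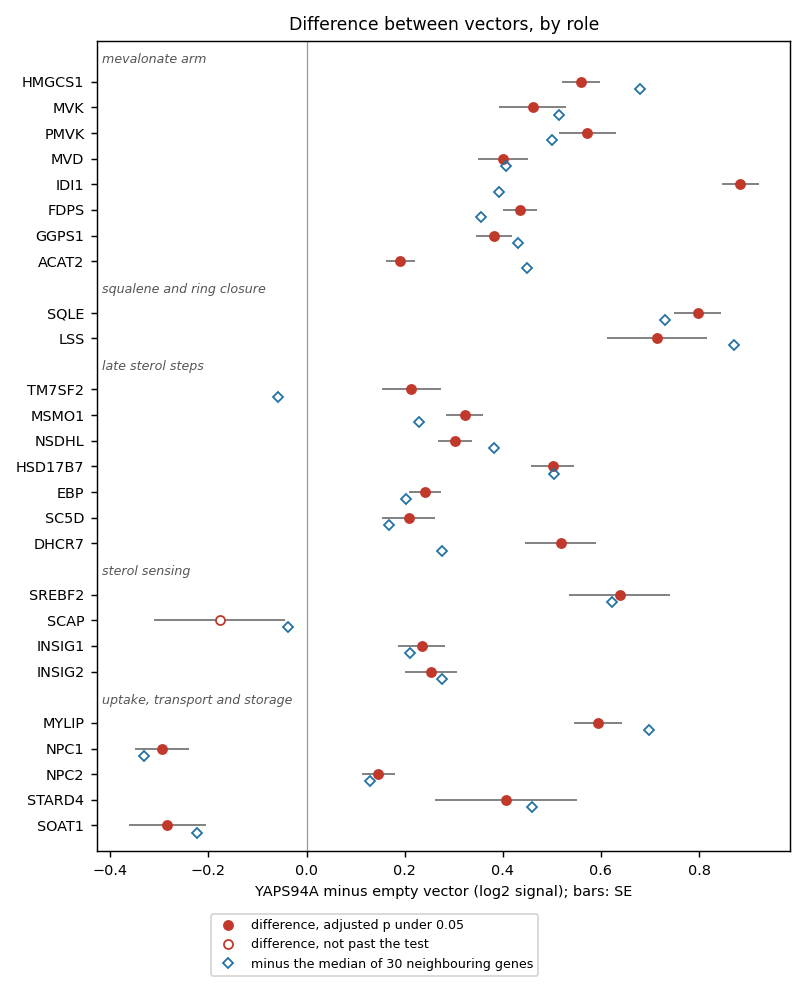
Differences between vectors (YAPS94A minus empty vector, log2 signal, horizontal axis) for each gene by role, as filled circles where the adjusted p was under 0.05 and open where not, with bars of 1 SE, and diamonds for the difference minus the median of 30 neighbouring genes. IDI1 drops to 0.39 and ACAT2 moves up to 0.45 relative to neighbours, TM7SF2 crosses 0, and most other genes stay close to their circle.

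In the sensing loop the transcription factor and both of its inhibitors rose, while the escort protein did not pass the test. SREBF2 read 10.20, 10.36, 10.03, 9.96 and 9.95 on the YAPS94A arrays, against 9.72, 9.61, 9.39, 9.25 and 9.34 on the empty vector arrays, with a difference of 0.64 ± 0.10 (SE, 1.56-fold, limma adjusted p = 0.000367) and no overlap between groups. SCAP read 9.59, 9.85, 9.45, 9.36 and 9.32 on the YAPS94A arrays, against 10.00, 9.84, 9.82, 9.39 and 9.41 on the empty vector arrays. Its groups overlapped and it differed by -0.18 ± 0.13 (limma adjusted p = 0.355, or 0.0791 when arrays were blocked by number). SCAP had an SD of 0.21 with YAPS94A and 0.27 with empty vector (n = 5 each), and its SE was 0.070 with the block.

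INSIG1, whose transcription is itself driven by SREBP, read 13.16, 13.01, 12.99, 13.00 and 13.03 on the YAPS94A arrays, against 12.71, 12.89, 12.76, 12.86 and 12.82 on the empty vector arrays. The difference was 0.23 ± 0.048 (limma adjusted p = 0.00199) without overlap between groups. INSIG2, the paralog known to be less dependent on SREBP, rose by 0.25 ± 0.053 (limma adjusted p = 0.00236), with 11.69 to 11.83 on the YAPS94A arrays and 11.33 to 11.59 on the empty vector arrays. On these probe sets the changes of the paralogs could not be told apart, since INSIG1 minus INSIG2 differed by -0.020 between the vectors (exact two-sided permutation p = 0.77, n = 5 each). That comparison depends on the INSIG1 probe set. The dimmer INSIG1 probe sets rose by 0.57 ± 0.063 and 0.95 ± 0.041, and with the mean of all probe sets of a gene INSIG1 exceeded INSIG2 by 0.33 (exact two-sided permutation p = 0.0079, the smallest that 5 against 5 allow).

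Genes of sterol transport and storage went both ways. MYLIP, a ubiquitin ligase that sends lipoprotein receptors to degradation and is induced by the oxysterol receptors LXR, read 10.30, 10.13, 10.18, 10.19 and 10.33 on the YAPS94A arrays, against 9.56, 9.59, 9.61, 9.70 and 9.69 on the empty vector arrays. It rose by 0.59 ± 0.048 (SE, 1.51-fold, limma adjusted p = 1.26e-06) without overlap. That value comes from an _s_at probe set, and without _x_at and _s_at probe sets MYLIP was at 0.17 (limma adjusted p = 0.108). The 0.17 is read from a single dim probe set (6.29 with YAPS94A, 6.11 with empty vector). A dimmer one, also neither _x_at nor _s_at, rose by 0.37 ± 0.077 (limma adjusted p = 0.00285 over all probe sets). The remaining _x_at and _s_at probe sets of MYLIP rose by 0.36 to 0.50. STARD4, a soluble sterol carrier, read 10.81, 10.43, 10.97, 11.00 and 11.13 on the YAPS94A arrays, against 10.20, 10.14, 10.63, 10.66 and 10.68 on the empty vector arrays. The groups overlapped, because the second YAPS94A array lay below 3 of the empty vector arrays, and the rise of 0.41 ± 0.15 barely passed (limma adjusted p = 0.0472). Each YAPS94A array was nevertheless above the empty vector array of the same number, by 0.29 to 0.62, and a fit blocked by number gave a limma adjusted p of 0.000344 (that fit called 21.1% of all genes higher). The STARD4 call was lost when any of 7 single arrays was left out (limma adjusted p up to 0.111), all but YAPS94A array 2 and the empty vector arrays 4 and 5.

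The partners that release cholesterol from lysosomes moved apart. NPC2, the soluble carrier that takes cholesterol up in the lysosome lumen, rose by 0.15 ± 0.033 (limma adjusted p = 0.00413) at a level near the top of the scale, 13.57 to 13.63 with YAPS94A and 13.39 to 13.49 with empty vector. NPC1, the membrane protein that receives it, read 11.53, 11.58, 11.43, 11.42 and 11.48 on the YAPS94A arrays, against 11.91, 11.80, 11.83, 11.67 and 11.69 on the empty vector arrays. Every YAPS94A array was lower, with a difference of -0.29 ± 0.055 (limma adjusted p = 0.00105). NPC1 minus NPC2 differed by -0.44 between the vectors, and by -0.22 with the mean of all probe sets of a gene (exact two-sided permutation p = 0.0079 for both, the smallest that 5 against 5 allow). The fall of NPC1 rests on its brightest probe set. The next brightest was at 0.16 ± 0.070 (limma adjusted p = 0.0992 over all probe sets), and with the mean of its probe sets NPC1 was at -0.072 (limma adjusted p = 0.244).

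SOAT1, which esterifies cholesterol for storage in lipid droplets, also fell. It read 11.35, 11.03, 11.28, 11.33 and 11.27 on the YAPS94A arrays, against 11.31, 11.51, 11.53, 11.69 and 11.65 on the empty vector arrays, a difference of -0.28 ± 0.078 (limma adjusted p = 0.0134). The highest YAPS94A array lay above the lowest empty vector array, so the groups overlapped on this probe set. They did not overlap on its other probe sets, which were almost as bright and fell by 0.31 ± 0.038 and 0.33 ± 0.036.

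Where a gene had several probe sets, they mostly moved the same way. The 26 members were read by 59 probe sets, and of the 33 beside the brightest ones, 23 rose, 2 fell and 8 failed the limma test over all probe sets. The share of all probe sets called in that fit is not given here, so these counts stand without a background. For 14 members a second probe set lay above the median signal of the arrays (6.27). In 13 of these (92.9%) it had the sign of the brightest, NPC1 being the exception. That share was close to the 93.1% among all genes with such a pair whose brightest probe set was called. In 11 of the 14 (78.6%) the second probe set showed the larger difference. HMGCS1 rose by 1.14 ± 0.058 on its second probe set, which read 11.48, 11.40, 11.55, 11.61 and 11.61 on the YAPS94A arrays, against 10.29, 10.30, 10.38, 10.48 and 10.49 on the empty vector arrays. SQLE rose by 1.39 ± 0.21 on its second, SREBF2 by 0.71 ± 0.074, GGPS1 by 0.55 ± 0.042 and NSDHL by 0.46 ± 0.044. On these dimmer probe sets HMGCS1 and SQLE thus exceeded a 2-fold difference. Over all 3082 genes with such a pair whose brightest probe set was called, the second showed a larger difference of the same sign in 45.4%, and in 64.8% of the 543 among them with a mean above 12. Why dimmer probe sets differed more was not tested.

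**Figure D3:**
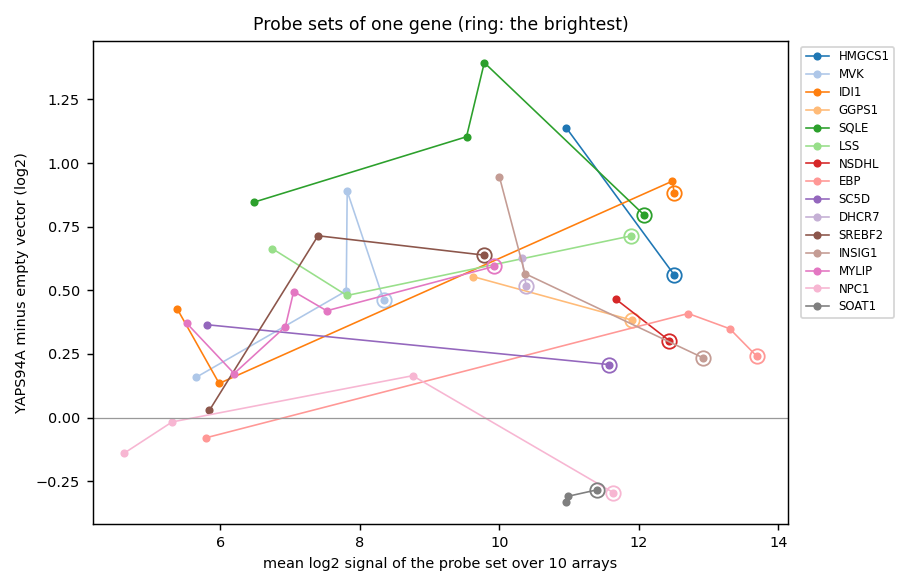
Difference between vectors (YAPS94A minus empty vector, log2, vertical axis) against the mean log2 signal over 10 arrays (horizontal axis) for every probe set of the 15 members with more than 1, joined by a line within a gene and with a ring around the brightest. For INSIG1, HMGCS1, SQLE, EBP and NSDHL the ringed point is lower than the next one to its left, and NPC1 is the gene whose 2 brightest probe sets lie on opposite sides of 0.

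Arrays with the same number in the labels tended to deviate together, which affected these genes too. The arrays numbered 1 and 2 were the highest of their vector for SREBF2, DHCR7, MVK and MVD, while they were the lowest of their vector for STARD4. Taken by number, all 5 differences were positive for the 23 genes that rose and negative for NPC1, whereas SCAP and SOAT1 each had 4 negative differences and 1 positive. For NPC1 and the 21 risen genes whose groups did not overlap, these signs follow from that separation and add nothing to it. Among the genes that rose, only TM7SF2 and STARD4 could have had a difference of the other sign. With arrays blocked by number 23 members again rose, and the call changed for none of the 26. Relative to neighbouring genes 22 members rose, where 23.0% of all genes were called higher. The labels do not say what the numbers stand for.

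**Figure D4:**
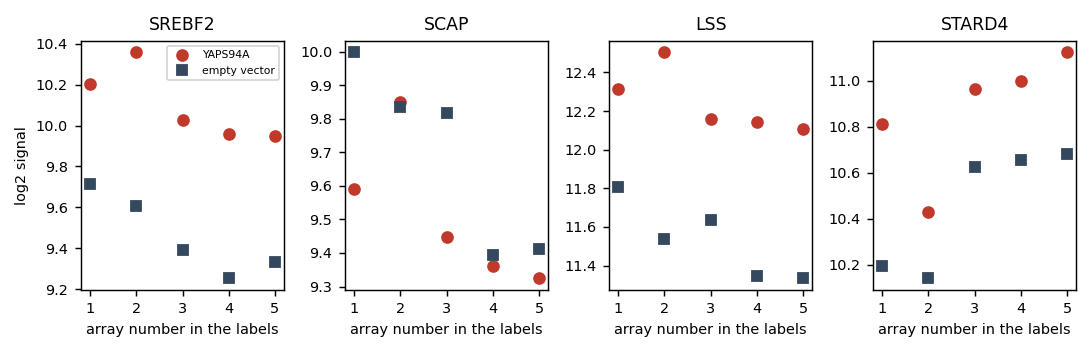
Log2 signal (vertical axes, a range for each gene) of SREBF2, SCAP, LSS and STARD4 by the array number in the labels (horizontal axes), with YAPS94A as circles and empty vector as squares. Circles lie above squares at every number for SREBF2, LSS and STARD4, although both vectors shift between numbers, while SCAP shows 4 numbers with the circle lower.

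Genes around the core pathway did not share its uniform rise. Their counts stand beside 18.6% of all genes called higher and 17.6% called lower, and were not tested as sets. Of 12 measured genes of SREBP processing and turnover 0 were higher, 6 were lower and 6 did not pass in limma (also 0 higher at an unadjusted p under 0.05), and the median was -0.17. The largest falls were in VCP (-0.35 ± 0.078, SE), an ATPase that pulls ubiquitinated proteins from the endoplasmic reticulum, UBE2G2 (-0.30 ± 0.046), a ubiquitin-conjugating enzyme of the same route, and PAQR3 (-0.26 ± 0.065), a Golgi protein that binds SCAP. The neighbours of VCP and UBE2G2 had medians of -0.28 and -0.23, and neither gene passed relative to them (limma adjusted p = 0.562 and 0.267). Of 13 genes that use isoprenoids 4 were higher, 4 lower and 5 uncalled, and the median was 0.011. NUS1, a subunit of the enzyme that builds dolichol, fell by 0.69 ± 0.038, where its neighbours had a median of -0.39 (limma adjusted p = 6.01e-05 relative to them). The subunits of the enzyme that makes the ubiquinone tail had differences of opposite sign, PDSS1 at 0.35 ± 0.077 and PDSS2 at -0.34 ± 0.038, but not relative to their neighbours. For PDSS1 the neighbour median was 0.73, more than its own difference, so that it was lower than its neighbours (limma adjusted p = 0.00189). For PDSS2 the neighbour median was -0.27, and the gene did not pass relative to it (limma adjusted p = 0.15).

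In the list of sterol transport, GRAMD1C, ABCG1 and VLDLR changed by more than any member did on its brightest probe set. Of 19 genes of sterol transport and ester turnover 5 were higher, 5 lower and 9 uncalled, and the median was -0.021. Over all genes 18.6% were called higher and 17.6% lower. GRAMD1C, of a family that carries cholesterol from the plasma membrane to the endoplasmic reticulum, was at 7.49 ± 0.076 with YAPS94A and 6.24 ± 0.019 with empty vector (mean log2 signal ± SD, n = 5 each), a rise of 1.25 ± 0.041 (SE). GRAMD1A and GRAMD1B of the same family fell, by 0.30 ± 0.048 and 0.29 ± 0.049 (limma adjusted p = 0.00033 and 0.00047). ABCG1, a sterol exporter induced by LXR, was at 6.90 ± 0.098 with YAPS94A and 5.66 ± 0.23 with empty vector, a rise of 1.24 ± 0.099. With empty vector both GRAMD1C and ABCG1 read below the median signal of the arrays (6.27). VLDLR, a lipoprotein receptor, fell by 1.17 ± 0.083, where its neighbours had a median of -0.31 (limma adjusted p = 6.24e-06 relative to them). Of 10 oxysterol and LXR genes 3 were higher, 3 lower and 4 uncalled, and the median was 0.059. NR1H3, which encodes LXR alpha, rose by 0.44 ± 0.054, CYP27A1, a hydroxylase that makes an oxysterol, rose by 0.71 ± 0.11, and LPCAT3, a phospholipid acyltransferase induced by LXR, fell by 0.82 ± 0.081. The neighbours of LPCAT3 had a median of -0.34 (limma adjusted p = 0.000483 relative to them). The LXR-induced genes MYLIP and ABCG1 were thus higher and LPCAT3 was lower in the same cells.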

How the data were processed

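RNA of HuCCT1 cells was hybridised to 10 Affymetrix arrays, 5 for each vector, after amplification with the NuGEN Ovation system and biotin labelling, per the labels' protocols. The deposited values are log2 signals of 54675 probe sets (2.86 to 14.43), and the summarisation and normalization used by the authors are not given in the sources used here. They were used as deposited, since array medians were nearly equal, and the number of arrays limits the precision. Arrays carry no counts, and no detection calls were used.

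Gene symbols came from the annotation of the array platform, brought up to date with RefSeq (GRCh38.p14). Of the probe sets, 41091 had 1 symbol and 1801 several, and 62 controls were left out. Each gene was read on its brightest probe set over the 10 arrays. The vectors were compared with limma 3.58.1 (R 4.3.3, lmFit and eBayes, no covariate, two-sided, Benjamini-Hochberg over 19775 genes), whose script was tested on simulated data. Single values per array were compared by exact permutation tests. The neighbour median is that of the 30 nearest genes above the median level in chromosome order. It was subtracted as a fixed value, and the p-value relative to neighbours came from the gene's own limma SE. The spread among the neighbours is thus not part of that p-value. Array numbers 1 to 5 are shared by both vectors, and deviations of same-numbered arrays correlated at 0.102 to 0.59 over genes. Among the arrays of the other vector, 4 of the 10 arrays correlated best with that of their own number. The number was thus treated only as a possible pairing, on this check and not on a stated batch. It was fitted as a block beside the fit without it.

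The members, related lists, markers and motifs were chosen with earlier results of these data known. The text names all members, YAP1 and the 3 largest changes past the test in each related list. LUM, COL3A1, COL1A1, DCN, ALB, SERPINA1, GRAMD1A and GRAMD1B were named after their values were seen. The comparison of brightest and second probe sets was also chosen then. The alternatives were renormalization (2 ways), filters on dim genes (2 levels), other choices of probe set, a variance trend, array weights, the block, arrays left out, neighbours and adjustment over all probe sets.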

Additional observations from a re-analysis of the deposited data

Results flagged for a closer look

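Of 54 sets of 5 arrays (26 members and YAP1, in each vector), 6 held an array that stood apart from the other 4 by Dixon's test at 95%, where chance gives about 1 in 20. TM7SF2 was high on YAPS94A array 2 (8.66, the others between 8.46 and 8.51). INSIG1 was high on YAPS94A array 1 (13.16, the others between 12.99 and 13.03). SOAT1 was low on YAPS94A array 2 (11.03, the others between 11.27 and 11.35). FDPS was high on empty vector array 1 (13.44, the others at 13.34). GGPS1 was low on empty vector array 2 (11.65, the others between 11.72 and 11.75). NPC2 was low on empty vector array 2 (13.39, the others between 13.48 and 13.49). All 6 arrays carry the number 1 or 2. The 6 genes kept their direction and their limma call when that array was left out. The cause was not tested.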

How the results depend on the processing

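Over 22 alternatives no gene of the set that passed the limma test in either direction turned its direction, except TM7SF2, at -0.058 relative to its neighbours, and the median difference of the members lay between 0.34 and 0.40. The count of members higher stayed between 22 and 23 except without _x_at and _s_at probe sets, where 15 of the 20 members left rose, since 6 had no other probe set and SC5D (0.36, limma adjusted p = 0.479) and MYLIP (0.17, limma adjusted p = 0.108) did not pass on the dim ones that then read them. SC5D was thus above its value of 0.21 on the brightest probe set, and MYLIP below its 0.59. With the mean of all probe sets the members lower numbered 1, as NPC1 no longer passed, and SC5D, at 0.29, did not pass (limma adjusted p = 0.277). INSIG1 against INSIG2 turned to 0.33 there. With single arrays left out it ranged from -0.067 to 0.0025, always short of the threshold, members higher from 22 to 23 and genes called from 6524 to 7206. NPC1 against NPC2 was -0.22 with the mean of all probe sets, -0.44 with the number as a block, where 5 pairs allow no p below 0.0625, and -0.43 without the arrays numbered 1 and 2, where 3 against 3 allow none below 0.1. YAP1 was at 0.26 relative to its neighbours (limma adjusted p = 0.0823). The replicate block changed no call among the members. STARD4 also lost its call when adjusted over all probe sets (0.0537). The cause of these changes was not tested where none is given.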
